A study of Mus musculus with 6 samples.

Results

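The genes described here encode the nuclear part of the mitochondrial respiratory chain, the protein complexes that carry electrons from nutrients to oxygen and make ATP. They were chosen by name: protein-coding genes whose mouse symbol starts with Ndufa, Ndufb, Ndufc, Ndufs, Ndufv, Uqcr, Cox4i, Cox5, Cox6, Cox7, Cox8 or Atp5, together with Sdha, Sdhb, Sdhc, Sdhd and Cyc1. The rule matched 95 genes in the GENCODE M21 annotation, of which 94 were in the count files. A gene was kept when it had 10 or more counts in at least 3 files, which left 88 genes, all of them among the 12767 genes tested. Of the 88, 79 encode subunits and 9 do not, namely 8 assembly factors of complex I (symbols starting Ndufaf) and Atp5s, an ATP synthase coupling factor. The subunits fall into complex I (36 genes), complex II (4), complex III (9), complex IV (14) and complex V (16).

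Complex I takes electrons from NADH and complex II takes them from succinate, and both pass them to ubiquinone. Complex III moves them from ubiquinone to cytochrome c, complex IV hands them to oxygen, and complexes I, III and IV pump protons across the inner membrane. Complex V, the ATP synthase, lets the protons flow back and makes ATP. A few subunits are encoded in mitochondrial DNA, and the nuclear-encoded ones are imported and assembled with them. In macrophages respiration falls after classical inflammatory activation and is high in the alternatively activated state.

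The cells were bone marrow-derived macrophages (BMDM) of C57BL/6/J mice aged 7 weeks, wild type as far as the labels say, grown with 20% medium conditioned by L929 fibroblasts. On day 6 they were replated, 800000 cells to a well, and 6 h later both groups received medium conditioned by cancer cells, which kept its lipids in 3 libraries and lacked them in the other 3. No group without conditioned medium entered the comparison. The identity of the cancer cells, the method of lipid removal and the exposure time were not given in the sources used here, and the stated culture time is unclear. The labels do not say whether replicates are separate mice or separate cultures. The p-values therefore describe the spread among these libraries, and that spread may be technical.

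Libraries held 19429022 to 25323053 counts, and the 3 counts that a count of 0 still allows came to 0.118 to 0.154 counts per 1000000 (CPM), for counting error only. The 8 macrophage markers checked were all detected, with summed levels of 29182 to 29539 CPM with lipids and 29500 to 34377 CPM without, and of these Cd68 was lower (log2 fold change -0.55) and Itgam (0.56) and Fcgr1 (0.29) were higher with lipids. Markers of neutrophils, B cells, T cells, mast cells, erythroid cells, platelets and dendritic cells summed to at most 2.30 CPM in any library, and Ly6g, Pax5, Cd3e, Fcer1a, Ms4a2, Hba-a1 and Hbb-bs were among those at 0 in every library. The 5 fibroblast markers were all detected, at 114 to 122 CPM with lipids and 118 to 162 CPM without, and 1 of them, Col3a1, was lower with lipids (-0.50). The part of these markers in the results below was not tested.

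With lipids in the medium, 5 of the 88 respiratory chain genes were lower and 0 were higher. The comparison asked which macrophage transcripts differed with the lipid content of the medium, and a gene was called when edgeR's quasi-likelihood F test gave an adjusted p below 0.05. The 5 genes were Ndufs5, Ndufb7 and Ndufa11 of complex I, Sdhc of complex II and Atp5k of complex V. They made up 5.68% of the 88, while 6.87% of all tested genes were lower and 4.58% were higher, so the share of called members was near the background and is not a result about these genes. DESeq2 called 9 members lower and limma-voom 4, and both called 0 higher, against 7.54% and 6.62% of tested genes lower and 5.32% and 4.70% higher with these tools. At an unadjusted p under 0.05, 30 members were lower, beside 14.5% of all tested genes, and 0 were higher, beside 12.1%. In bulk RNA, fewer cells of a type and less RNA per cell cannot be told apart.

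Small negative values were spread over nearly all members. The log2 fold change, with lipids minus without, was negative for 81 of the 88 genes, against 50.8% of all tested genes. The median was -0.13 over the members and -0.0032 over all tested genes. Most values were small in size. They were under 0.1 for 33 members, between 0.1 and 0.3 for 43, between 0.3 and 0.5 for 11, and above 0.5 for 1, Uqcr11. The groups did not overlap, with every library with lipids below every library without, for 28 of the 88, while 15.8% of all tested genes had that pattern. The opposite pattern, every library with lipids above, was seen for 0 members and for 14.7% of all tested genes. How far a fold change stood from 0 depended on the scaling. With library totals alone, in place of trimmed mean of M-values (TMM) factors, 60 of the 88 values were negative. The median of the members was then -0.05 and that of all tested genes 0.07. In that fit edgeR called 0 members lower, beside 4.67% of tested genes at the same adjusted threshold. At an unadjusted p under 0.05, 10 members were lower, and the share of tested genes at that threshold is not given here. Without the filter on low counts 14 members were lower, beside 5.42% of tested genes.

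**Figure D1:**
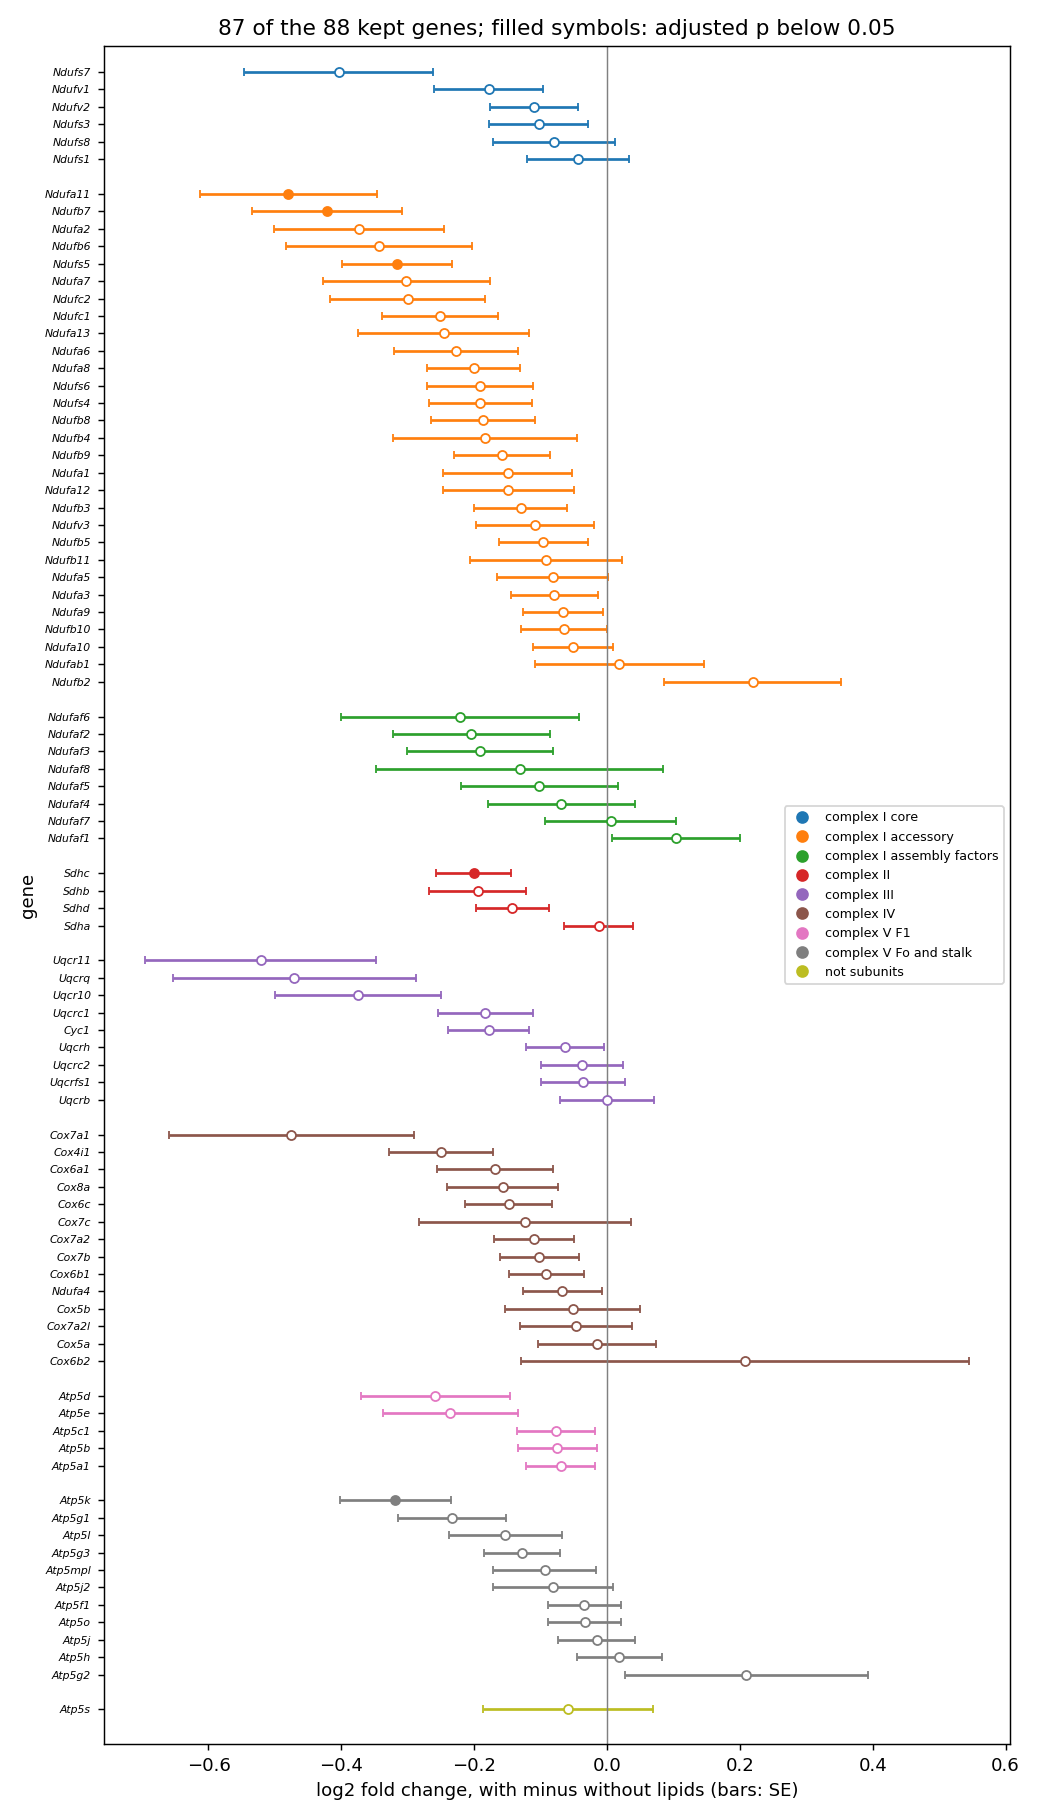
Log2 fold change (with minus without lipids) of 87 of the 88 kept genes on the horizontal axis, with bars for the standard error, grouped by complex and class on the vertical axis. Of the 87 points 80 lie left of 0, and the 5 filled symbols are the genes past an adjusted p of 0.05.

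Stretches of the promoters of members are shown for the called genes that had a promoter entry. They set the letters that precede these genes beside those of Sdha, which did not pass the test. Sdhc, also called, had no entry among the promoters, so its motifs are not known here. The nuclear respiratory factor NRF1, the ETS-family factor GABP and YY1 are known regulators of respiratory chain genes. RefSeq promoters on GRCm38.p6, 250 bases before to 50 after the start, matched 72 of the 88 members by symbol, and the 120 bases before the start are printed for Atp5k (chr5:108434400-108434519, minus strand), Ndufa11 (chr17:56717642-56717761, plus strand), Ndufb7 (chr8:83566638-83566757, plus strand), Ndufs5 (chr4:123718187-123718306, minus strand) and Sdha (chr13:74350241-74350360, minus strand). Capitals mark exact matches on either strand to the NRF1 motif, searched as GCGC, then A, then any base, then GCGC, or, in Ndufb7, to the ETS motif CCGGAAG.
Atp5k: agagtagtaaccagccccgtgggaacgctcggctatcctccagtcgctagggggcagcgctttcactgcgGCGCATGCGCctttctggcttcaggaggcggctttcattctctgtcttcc
Ndufa11: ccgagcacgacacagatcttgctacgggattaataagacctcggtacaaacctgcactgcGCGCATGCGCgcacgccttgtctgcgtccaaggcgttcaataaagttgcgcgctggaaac
Ndufb7: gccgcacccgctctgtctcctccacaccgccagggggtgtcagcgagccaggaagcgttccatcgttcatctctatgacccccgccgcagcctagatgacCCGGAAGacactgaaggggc
Ndufs5: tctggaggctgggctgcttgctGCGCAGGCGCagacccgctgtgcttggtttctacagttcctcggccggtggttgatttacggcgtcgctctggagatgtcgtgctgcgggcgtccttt
Sdha: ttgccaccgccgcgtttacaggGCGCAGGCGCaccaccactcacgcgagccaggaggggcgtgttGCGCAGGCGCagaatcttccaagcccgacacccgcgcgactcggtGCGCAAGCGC

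Counting position 1 base before the start as -1, the NRF1 match begins at -50 in Atp5k, -60 in Ndufa11 and -98 in Ndufs5, and Sdha has 3 matches, at -98, -55 and -10. The NRF1 motif was in 19 of the 72 member promoters (26.4%), against 11.8% of 9612 tested genes with a promoter and 5.19% of all 27025 symbols in the table. The ETS motif was in 18 (25%), against 20.8% of tested genes and 9.93% of all symbols. The YY1 motif, AANATGGCG, was in 11 (15.3%), against 6.25% and 2.76%. The 3 motifs do not contain each other, and both strands were searched for each. A match is a run of letters in this window and shows no binding.

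Fold changes with and without each motif are given as values, and whether they differ was not tested. Members with an NRF1 match had a median log2 fold change of -0.14 and those without one -0.11. The medians were -0.15 and -0.11 for the ETS motif and -0.13 and -0.12 for the YY1 motif. Sdha, with 3 NRF1 matches, was at -0.01, and Atp5k, Ndufa11 and Ndufs5, with 1 site each, were lower with lipids. Whether the number of matches is related to the fold change was not tested.

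Complex I, with 36 of the 88 members, held 3 of the 5 called genes. This was 8.33% of its genes, near the 6.87% of all tested genes that were lower. All 3 encode accessory subunits, which surround the catalytic core and make up 29 of the 36 genes. Ndufs5 encodes a small subunit on the intermembrane-space side of the complex. Its promoter stretch, shown above, holds an NRF1 match. The gene was at 17.4, 16.5 and 16.1 CPM in replicates 1 to 3 with lipids and at 20.3, 21.9 and 20.1 CPM without. The 3 libraries with lipids were all below the 3 without, and the members of each group lay close together. The log2 fold change was -0.32 (SE 0.0832, edgeR adjusted p = 0.0328). Reads of Ndufs5 can be shared with copies, since 31.1% of its 50-base stretches also occur in other annotated genes.

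Ndufb7 encodes a subunit of the membrane arm of complex I. Its levels were 28.0, 28.2 and 27.7 CPM with lipids and 30.0, 42.4 and 39.9 CPM without. The groups did not overlap, but replicate 1 without lipids lay close to the libraries with lipids, and the distance came from the other two. The log2 fold change was -0.42 (SE 0.113, edgeR adjusted p = 0.0356). Ndufa11, another membrane-arm subunit, had the same arrangement, at 17.9, 17.1 and 18.2 CPM with lipids and 19.2, 29.6 and 25.4 CPM without. Its log2 fold change was -0.48 (SE 0.133, edgeR adjusted p = 0.0410), and it did not pass with limma-voom (adjusted p = 0.0523). Ndufa11 shares 70 exonic bases with Vmac on the other strand, and whether counting used the strand is not given in the sources used here.

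**Figure D2:**
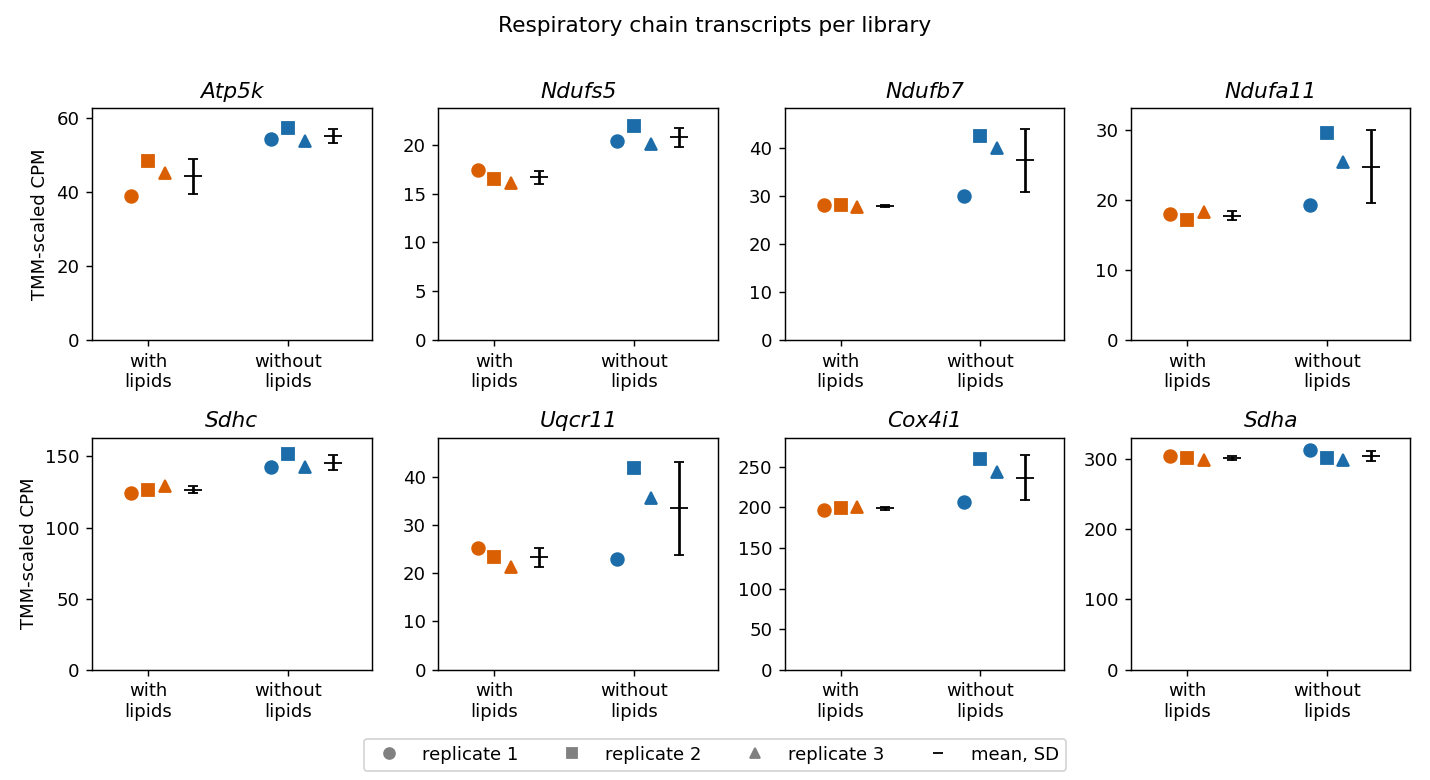
Level of 8 respiratory chain genes in each of the 6 libraries, in TMM-scaled CPM on axes that start at 0, with symbols for replicates 1 to 3 and a bar for the mean and SD of each group. Replicate 1 without lipids lies near the libraries with lipids for Ndufb7, Ndufa11, Uqcr11 and Cox4i1, and with its own group for Atp5k, Ndufs5 and Sdhc, while the groups of Sdha overlap.

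The calls depended on which libraries were fitted. When the library left out was replicate 1 or 3 with lipids, or replicate 2 without, edgeR called 0 members lower. At an unadjusted p under 0.05, 18, 15 and 10 were lower in these fits. The share of tested genes at that threshold is not given here. At the adjusted threshold 3.67%, 3.75% and 3.69% of tested genes were lower. Without replicate 2 of the group with lipids only Atp5k remained, beside 3.27%. Leaving out replicate 3 without lipids, Atp5k, Ndufs5 and Sdhc remained, beside 6.69%. Leaving out replicate 1 without lipids, 30 members were lower, all 5 among them, beside 15.1% of tested genes. The fold changes moved less. With 1 library left out they ran from -0.39 to -0.24 for Atp5k, -0.35 to -0.28 for Ndufs5 and -0.22 to -0.17 for Sdhc. Ndufb7 kept a log2 fold change of -0.33 and Ndufa11 -0.34 when replicate 2 without lipids was dropped, at edgeR adjusted p-values of 0.159 and 0.169.

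Values below 0 were spread over complex I. Of its 36 genes 34 had negative fold changes, and the median was -0.15. The groups did not overlap for 13, all with lipids lower, beside 15.8% of all tested genes with that pattern. The 29 accessory genes had a median of -0.18 and no overlap for 12. The 7 core genes, which carry the flavin, the iron-sulfur clusters and the quinone site, had a median of -0.10, no overlap for 1 (Ndufv2), and 0 calls with edgeR, DESeq2 or limma-voom. At an unadjusted p under 0.05 with edgeR there was 1 core gene, Ndufs7, beside 14.5% of all tested genes lower. Ndufs7 encodes the subunit with the iron-sulfur cluster next to the quinone site. Ndufs7 was at 17.8, 17.1 and 16.5 CPM with lipids and 17.3, 27.7 and 22.9 CPM without, so replicate 1 without lipids lay among the libraries with lipids (log2 fold change -0.40, edgeR adjusted p = 0.0951). Ndufs1, another core subunit, was at -0.04, and its groups overlapped. Whether accessory and core genes differed was not tested.

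Among accessory genes that missed the threshold, Ndufa2 was at 34.9, 32.2 and 34.0 CPM with lipids and 33.4, 50.4 and 47.2 CPM without (log2 fold change -0.37, edgeR adjusted p = 0.0870). Ndufa1, needed for assembly of the membrane arm, was at 25.7, 28.8 and 26.6 CPM with lipids and 26.6, 34.0 and 29.4 CPM without, with overlap between the groups (log2 fold change -0.15). The 2 accessory genes with positive values were Ndufb2 at 0.22 (SE 0.133) and Ndufab1, the mitochondrial acyl carrier protein, at 0.02 (SE 0.127), and neither passed the test. Ndufb2 shares 146 exonic bases with Braf on the other strand, which held 5550 counts over the 6 libraries against 966 for Ndufb2. The 8 assembly factors, which help to build complex I and are not part of it, had 6 negative values and a median of -0.12. For them edgeR, DESeq2 and limma-voom made 0 calls, and 0 were at an unadjusted p under 0.05 with edgeR. Without overlap there were 0, beside 15.8% of all tested genes lower and 14.7% higher. Ndufaf3 was at -0.19 and Ndufaf2 at -0.20, while Ndufaf1 was at 0.10.

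Complex II has 4 subunits, all nuclear-encoded, and is also succinate dehydrogenase of the tricarboxylic acid cycle. Sdhc, a membrane anchor that binds heme and ubiquinone, was at 124, 127 and 129 CPM with lipids and 143, 152 and 142 CPM without. The groups did not overlap and replicate 1 without lipids lay with its own group. The log2 fold change was -0.20 (SE 0.0568, edgeR adjusted p = 0.0442). Sdhd, the other anchor, was at 124, 129 and 128 CPM with lipids and 144, 138 and 138 CPM without, again with no overlap, and missed the threshold at -0.14 (SE 0.0549, edgeR adjusted p = 0.125). Sdhb, the iron-sulfur subunit, was at 84.7, 82.9 and 88.2 CPM with lipids and 87.4, 103 and 102 CPM without (log2 fold change -0.19, SE 0.0734, edgeR adjusted p = 0.116). Its groups overlapped through replicate 1 without lipids.

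Sdha, the flavin subunit that oxidises succinate, stood apart in value from the other three. It was at 304, 302 and 299 CPM with lipids and 313, 302 and 299 CPM without. The groups overlapped, with replicate 1 without lipids above the other 5 libraries, and the log2 fold change was -0.01 (SE 0.0519, edgeR adjusted p = 0.904). Whether Sdha differed from the other Sdh genes in response was not tested.

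In complex III all 9 values were negative, though those of Uqcrb and Uqcrh were positive with library totals alone, and the median was -0.18. With edgeR 0 passed the test, beside 6.87% of all tested genes lower. At an unadjusted p under 0.05 there were 5, beside 14.5% of all tested genes lower. DESeq2 called Uqcr10 and Uqcr11 in this complex, beside 7.54%, and limma-voom called 0, beside 6.62%. Uqcr11, a small peripheral subunit, had the most negative value of all members. It was at 25.2, 23.4 and 21.4 CPM with lipids and 22.9, 41.9 and 35.7 CPM without, so that replicate 1 without lipids lay inside the group with lipids (log2 fold change -0.52, SE 0.174, edgeR adjusted p = 0.0809). Without that library Uqcr11 was at -0.72 (edgeR adjusted p = 5.2e-05). Uqcr10, another small subunit, was at 29.6, 29.4 and 29.4 CPM with lipids and 29.9, 45.5 and 39.2 CPM without. Its groups did not overlap, by a narrow margin at replicate 1 without lipids (log2 fold change -0.37, SE 0.125, edgeR adjusted p = 0.0808).

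Cyc1, which encodes cytochrome c1 and passes electrons to cytochrome c, was the other complex III gene without overlap, beside 15.8% of all tested genes. It was at 62.5, 58.3 and 59.1 CPM with lipids and 66.8, 70.0 and 66.7 CPM without (log2 fold change -0.18, SE 0.0616, edgeR adjusted p = 0.0894). Of the large core subunits Uqcrc1 was at -0.18 (edgeR unadjusted p = 0.0263, adjusted p = 0.128) and Uqcrc2 at -0.04, and both overlapped between the groups, as did Uqcrfs1, the Rieske iron-sulfur protein, at -0.04. Uqcrh, the hinge protein that contacts cytochrome c1, was at -0.06 and Uqcrb at -0.00028. Uqcrb shares 43.4% of its 50-base stretches with other annotated genes, so its counts are uncertain.

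In complex IV 13 of 14 genes had negative values, with a median of -0.11. The groups did not overlap for 6, all with lipids lower, beside 15.8% of all tested genes. None passed edgeR's test, with 0 called beside 6.87% of all tested genes lower, and 3 were at an unadjusted p under 0.05, beside 14.5%. DESeq2 called Cox4i1, beside 7.54%, and limma-voom 0, beside 6.62%. Cox4i1, the common form of subunit IV, was at 197, 199 and 201 CPM with lipids and 207, 260 and 244 CPM without. The 3 libraries with lipids lay within a narrow range below all others (log2 fold change -0.25, SE 0.0785, edgeR adjusted p = 0.0666). Cox4i1 passed with DESeq2 (adjusted p = 0.0486) and also when replicate 1 without lipids was left out (edgeR adjusted p = 0.000271). In the fit corrected for GC and length it was at -0.08 (edgeR adjusted p = 0.235). Cox4i1 shares 154 exonic bases with Emc8 on the other strand.

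Several complex IV subunits have a common form and a form made mainly in muscle, lung or testis, and in these macrophages the common forms dominated. Levels between genes are compared as mean TMM-scaled CPM per kb of exon, which depends on the annotated exon length. Cox4i1 was at 141 per kb and its lung form Cox4i2 at 0.139. Cox6a1 was at 100.2 and the muscle form Cox6a2 at 0.485. Cox6b1 was at 211 and the testis form Cox6b2 at 0.526, and Cox7a2 was at 82.7 and the muscle form Cox7a1 at 3.83. Of the other forms, Cox7b2, Cox8b and Cox8c had 0 counts in each library, which allows up to 3 counts, while their common partners Cox7b and Cox8a were at 82.8 and 91.3 per kb. The 6 genes below the count minimum were Cox4i2, with 1 to 3 counts per library, Cox6a2 with 5 to 9, Ndufa4l2 with 0 to 2, and Cox7b2, Cox8b and Cox8c.

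Of the minor forms that could be tested, Cox7a1 was at 1.72, 1.46 and 1.96 CPM with lipids and 2.52, 2.55 and 2.07 CPM without. The groups did not overlap (log2 fold change -0.48, SE 0.184, edgeR adjusted p = 0.127). Cox6b2, at 0.424 to 0.889 CPM over the 6 libraries, was the complex IV gene with a positive value, 0.21 (SE 0.337, edgeR adjusted p = 0.740). The common forms Cox6a1 at -0.17, Cox8a at -0.16, Cox7a2 at -0.11, Cox7b at -0.10 and Cox6b1 at -0.09 did not pass the test. Nor did the subunits Cox6c at -0.15, Cox7c at -0.12, Cox5b at -0.05 and Cox5a at -0.02. Ndufa4, now known as a complex IV subunit despite its symbol, was at -0.07 and Cox7a2l at -0.05.

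In complex V, 14 of 16 genes had negative values, with a median of -0.08. For 5 there was no overlap, all with lipids lower, beside 15.8% of all tested genes. Atp5k, which encodes subunit e in the membrane part where ATP synthase dimers form, was at 38.9, 48.4 and 45.1 CPM with lipids and 54.3, 57.3 and 53.7 CPM without. The groups did not overlap, and here the spread was larger with lipids, where replicate 1 was lowest. The log2 fold change was -0.32 (SE 0.0835, edgeR adjusted p = 0.0320). It was -0.24 without replicate 1 of the group with lipids (edgeR adjusted p = 0.121) and -0.13 when the fit was corrected for the GC content and length of genes (edgeR adjusted p = 0.407).

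Subunit c, the ring that turns as protons pass, is encoded by a trio of genes for the same mature protein. Atp5g3 was at 52.7 CPM per kb of exon, Atp5g1 at 4.69 and Atp5g2 at 1.58, an order that also held per kb of the coding transcripts. Atp5g1 was at 21.7, 20.0 and 21.8 CPM with lipids and 25.2, 26.0 and 23.4 CPM without, with no overlap (log2 fold change -0.23, SE 0.0811, edgeR adjusted p = 0.0907). With the correction for GC and length it passed (-0.26, edgeR adjusted p = 0.0297). Atp5g3 was at -0.13 with no overlap, and Atp5g2 at 0.21 (SE 0.183, edgeR adjusted p = 0.510). The catalytic F1 subunits were the most abundant transcripts per kb of exon in this complex, Atp5a1 at 178 and Atp5b at 159, with log2 fold changes of -0.07 and -0.08 (edgeR adjusted p = 0.435 and 0.466). Atp5l, at -0.15, shares 84.8% of its 50-base stretches with other annotated genes. Atp5s was at -0.06.

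Libraries without lipids were less alike than those with lipids. Over the 88 members the median deviation from the 6-library mean was -0.08, -0.05 and -0.07 on the log2 CPM scale in replicates 1 to 3 with lipids. It was 0.00048, 0.13 and 0.08 in replicates 1 to 3 without lipids. The median within-group SD of the members was 0.0560 log2 with lipids and 0.108 without, against 0.0738 and 0.135 over all tested genes. Of the 88 members, 44 were highest in replicate 2 without lipids, 18 in replicate 1 and 16 in replicate 3 of that group.

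Replicate 1 without lipids was above every library with lipids for 43 of the 88 members, beside 34.9% of all tested genes. Replicates 2 and 3 were above for 65 and 64 members, beside 39.3% and 37.1%. A set of 31 members, among them Uqcr11, Uqcrq, Ndufs7, Ndufa2, Ndufa13, Atp5d and Atp5e, was above in replicates 2 and 3 and not in replicate 1. Their median GC content was 52.5%. The 28 members above in all 3 libraries, a pattern of 15.8% of all tested genes, had a median GC content of 49.3%. The remaining 29, among them Sdha, Ndufs1, Uqcrc2 and Atp5b, had a median of 47.2%. The share of all tested genes with the pattern of the 31 is not given here. The sets were formed from these same values, and whether they differ in GC content was not tested. The names given for these sets were chosen after their values were seen.

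**Figure D3:**
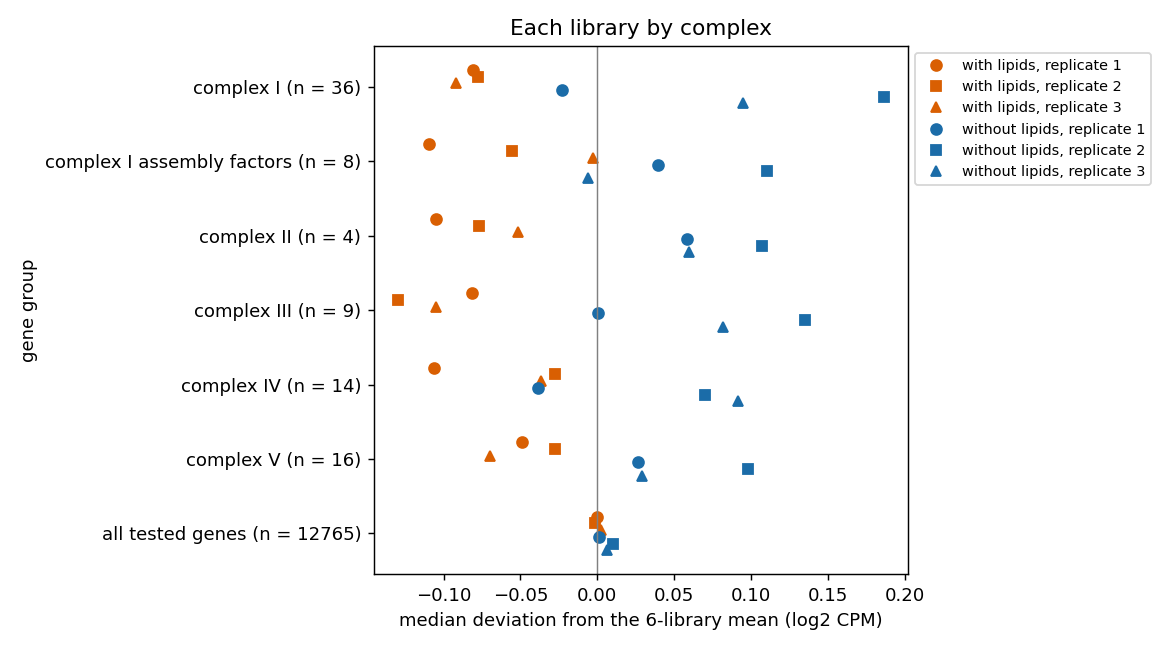
Median deviation from the 6-library mean, in log2 CPM on the horizontal axis, of the genes of each complex and of all tested genes in each library, with colours for the groups and symbols for replicates 1 to 3. In complex I, replicate 1 without lipids lies at -0.02 while replicates 2 and 3 lie at 0.19 and 0.09, and in complex II the 3 libraries without lipids lie between 0.06 and 0.11.

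By complex, replicate 1 without lipids was above all 3 libraries with lipids in its median for complexes I, II, III and V and for the assembly factors. For the assembly factors the groups still overlapped, with replicate 3 without lipids at -0.0062 and replicate 3 with lipids at -0.0029. In complex IV replicate 1 without lipids was at -0.04, below replicates 2 and 3 with lipids. In complex II the 3 libraries with lipids were at -0.10, -0.08 and -0.05 and those without at 0.06, 0.11 and 0.06. In complex III they were at -0.08, -0.13 and -0.10 with lipids and 0.00064, 0.13 and 0.08 without.

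GC content moved with these values. Across the 12720 tested genes with a GC value, the deviation of a library from the mean was related to GC content at a Spearman rho of -0.05, -0.37 and -0.22 in replicates 1 to 3 with lipids, and of -0.35, 0.49 and 0.36 in replicates 1 to 3 without. Replicates 2 and 3 without lipids, above every library with lipids for 65 and 64 members, had positive values of rho. Replicate 1 without lipids, above for 43 members, had a negative one. Each deviation was taken from the mean of the same 6 libraries, so these values depend on each other. The part of GC content in the members' fold changes was not tested. Fold change and GC content were related at a rho of -0.37 across the 88 members and -0.29 across all tested genes, in both cases across genes that share the same 6 libraries. Members were close to other genes in GC content, with a median of 50.01% against 49.3%, and had shorter exons, with a median total of 1737 bases against 4329. Fold change and exon length were related at a rho of 0.31 across members and 0.14 across all tested genes.

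**Figure D4:**
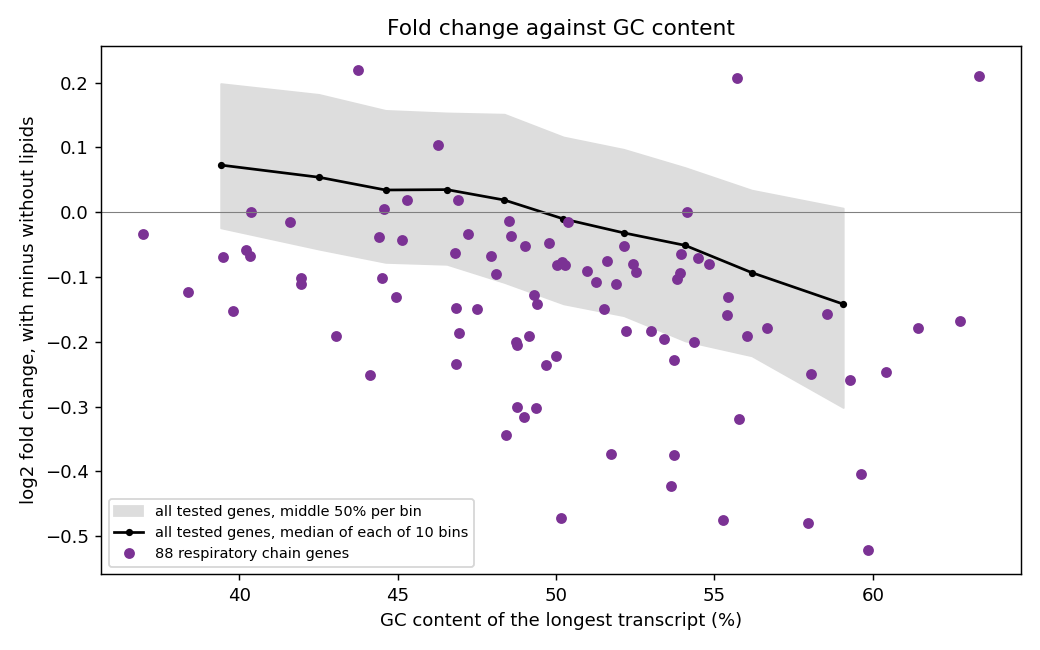
Log2 fold change (with minus without lipids) against GC content of the longest transcript (%), with a point for each of the 88 members, a line for the median of all tested genes in 10 equal-sized GC bins and a band for the middle 50% of genes in each bin. The line falls from 0.07 in the lowest bin to -0.14 in the highest, and the members' median falls from -0.07 to -0.25.

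In each of the 10 GC bins the median of the members was below that of all tested genes. In the lowest bin it was -0.07 for 7 members and 0.07 for all genes, and in the highest -0.25 for 10 members and -0.14 for all genes. The 44 members at or above the median GC content had a median fold change of -0.16 and the 44 below it -0.10. In the fit corrected for GC and length the members' median was -0.07 with 66 of 88 negative, and all tested genes had a median of 0.0061. With that correction 6 members were lower, beside 8.66% of tested genes. These were Ndufs5, Ndufb7, Ndufa11 and Sdhc of the 5 called before, with Atp5g1 and Ndufs4 in addition. Several values lay closer to 0 in that fit, among them Ndufa11 at -0.28, Ndufa2 at -0.23, Uqcr11 at -0.26, Uqcr10 at -0.20, Cox7a1 at -0.29, Sdhb at -0.11, Sdhd at -0.07 and Ndufa1 at -0.04.

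In total amount the groups overlapped as a share of all counts and did not overlap on the TMM scale. The 88 genes took 0.597%, 0.601% and 0.595% of all counts in replicates 1 to 3 with lipids and 0.596%, 0.627% and 0.614% without. Replicate 1 without lipids lay within the range of the group with lipids, so the groups overlapped in this share. The TMM-scaled sums were 5783 to 5847 CPM with lipids and 6086 to 6480 CPM without. On the TMM scale the sum with lipids was 5818 ± 32.6 CPM and that without 6286 ± 197 CPM (mean ± SD over n = 3 libraries each), a difference of -7.45%, while the sum over all tested genes differed by -5.19% on that scale. The sum of complex II was 641 ± 3.82 CPM with lipids and 688 ± 6.82 CPM without, and that of complex V 2156 ± 28.1 and 2284 ± 55.1 CPM.

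The transcripts of the mitochondrial genome were checked beside the nuclear genes. Of 13 mitochondrial protein genes 11 were tested, 7 had negative values, the median was -0.05, and edgeR, DESeq2 and limma-voom called 0 in either direction, with 0 at an unadjusted p under 0.05. Their counts were uneven. A set of 5, mt-Atp6, mt-Co2, mt-Co3, mt-Nd3 and mt-Nd4l, shared over 97% of their 50-base stretches with other annotated genes and held 1 to 136 counts per library, against 5665 to 147713 for the other 8. Of those 8, mt-Cytb, the mitochondrial subunit of complex III, was at -0.05 and mt-Co1 of complex IV at -0.09 (edgeR adjusted p = 0.636 and 0.467).

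Genes that build or feed the respiratory chain were checked as lists, beside 6.87% of all tested genes lower and 4.58% higher with edgeR. Of 40 further assembly and supercomplex factors 1 was lower, Cox10, which makes heme for complex IV, with 30 negative and a median of -0.08. Cox10 was at 17.4, 16.5 and 15.7 CPM with lipids and 21.4, 23.2 and 20.4 CPM without, with no overlap (log2 fold change -0.39, edgeR adjusted p = 0.0164). Of 21 electron carrier and ubiquinone genes 2 were lower, Coq5 at -0.28 and Coq7 at -0.40, both enzymes of ubiquinone synthesis (median of the list -0.06). Of 19 tricarboxylic acid cycle genes 1 was higher, with 13 negative and a median of -0.05. This was Fh1, fumarase, at 76.0, 79.9 and 80.4 CPM with lipids and 65.3, 61.7 and 62.6 CPM without, with no overlap (log2 fold change 0.32, edgeR adjusted p = 0.00654). Fumarase acts in the cycle next after succinate dehydrogenase, complex II. The call for Fh1 was lost when either replicate 2 or replicate 3 with lipids was dropped (edgeR adjusted p = 0.0539 and 0.0501), with log2 fold changes of 0.31 and 0.30.

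Of 25 mitochondrial import and inner membrane carrier genes 4 were lower, beside 6.87% of all tested genes, with 19 negative and a median of -0.13. Timm13, a small carrier chaperone, was at 16.5, 15.1 and 16.4 CPM with lipids and 20.1, 33.2 and 25.9 CPM without (log2 fold change -0.72, edgeR adjusted p = 0.0110). Timm10 was at -0.43 and Tomm40, the outer membrane channel, at -0.39, and the fourth was Tomm5 at -0.33, which the naming rule left out. Of 20 regulators of mitochondrial biogenesis 14 had positive values (median 0.07) and 1 was higher, Gabpb2, a partner of GABP, at 0.24 (edgeR adjusted p = 0.0219). Of 76 mitochondrial ribosomal protein genes 63 had negative values with a median of -0.11, and edgeR, DESeq2 and limma-voom called 0 in either direction. At an unadjusted p under 0.05 with edgeR 15 were lower, beside 14.5% of all tested genes, and 0 were higher, beside 12.1%.

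Calls in the other direction numbered 0 for each of these lists with edgeR, DESeq2 and limma-voom. At an unadjusted p under 0.05 there were 1 higher assembly factor, 0 higher carrier or ubiquinone genes, 3 lower tricarboxylic acid cycle genes, 1 lower regulator and 1 higher import gene. Of all tested genes 14.5% were lower and 12.1% higher at that threshold. Of the 11 called genes of the lists beside the members, the cytosolic ribosomal genes included, 0 were called in all 6 fits that left out 1 library. Timm13 and Fh1 were called in 4 of these fits and Cox10 in 3. The fold changes kept their sign in all 6 fits, and ran from -0.43 to -0.34 for Cox10, -0.32 to -0.25 for Coq5, -0.46 to -0.32 for Coq7 and -0.88 to -0.53 for Timm13. With library totals alone the list medians were 0.02 for the mitochondrial protein genes, 0.01 for the carrier and ubiquinone genes and 0.03 for the tricarboxylic acid cycle, so these medians changed sign with the scaling.

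Cytosolic ribosomal protein genes, short and abundant transcripts outside mitochondria, were counted for comparison. Of 76 such genes 49 were negative with a median of -0.09. Lower were 2, beside 6.87% of all tested genes, namely Rplp1 at -0.64 and Rps14 at -0.27. DESeq2 did not call Rplp1 (adjusted p = 0.0926), nor did limma-voom (adjusted p = 0.0590), and it was at -0.42 when replicate 2 without lipids was dropped (edgeR adjusted p = 0.175). Rplp1 was at 157, 136 and 142 CPM with lipids and 151, 288 and 236 CPM without, so replicate 1 without lipids lay inside the group with lipids, as for Uqcr11. In the fit corrected for GC and length the medians were -0.01 for the cytosolic ribosomal genes, -0.09 for the mitochondrial ribosomal and the import genes and -0.07 for the members. Whether the members differed from these lists was not tested.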

How the data were processed

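For 6 libraries the authors deposited whole-number counts per Ensembl gene identifier. Per the labels' protocols, the libraries came from a stranded mRNA kit and column-purified total RNA. Named in the submitters' processing notes are TopHat2 2.1.0, HTSeq, DESeq2 and GRCm38.p4, with no step given for each. The strand setting and annotation release were not given in the sources used here. Of 46603 gene rows, 46091 matched GENCODE M21 (GRCm38) and 512, with 0.129% to 0.142% of counts, did not. There were 0 rows for unassigned reads.

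The test was edgeR's (version 4.0.16, R 4.3.3): filterByExpr (minimum count 10, minimum total 15), TMM factors, and a two-sided quasi-likelihood F test of group over 12767 genes with Benjamini-Hochberg adjustment. The steps were tested on simulated data with known changes in 50 genes at each fold. They recovered 30% of 1.25-fold, 74% of 1.5-fold, 88% of 2-fold and 94% of 4-fold changes. Among 152 calls 9 were false. The counts were drawn separately for each gene, with no shift shared by genes of like GC content. These rates may therefore not hold in the libraries themselves, where deviations were related to GC content. With 30% recovered at 1.25-fold, changes as small as most of those seen here would often be missed. CPM values are TMM-scaled. GC content is that of the longest transcript and exon length that of merged exons. Copies were found as shared 50-base stretches of annotated transcripts.

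The members and lists were chosen with earlier results of these data known. Named were members past the threshold, the 2 with the smallest p and the 2 with the highest level per kb of exon in each complex, isoform copies, the Sdh genes, and up to 3 called genes per other list and direction. Other genes named were chosen after their values were seen. Alternatives were other scalings and filters, DESeq2 1.42.0, limma-voom (limma 3.58.1), a replicate block, a GC and length correction, each library left out, and an adjusted p of 0.01. A few genes are not reported here by name, 1 of them a member that still enters every count.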

Additional observations from a re-analysis of the deposited data

How the results depend on the processing

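The 5 lower members came to 0 with library totals alone and at an adjusted p of 0.01, 14 without the filter, 9 with DESeq2, and 0 to 30 when 1 library was left out. They were 5 with median-of-ratios scaling (6.7% of tested genes lower), without the 20 most abundant genes (6.74%) and with 10 counts in 3 libraries (6.79%), 4 with limma-voom and 6 in the fit corrected for GC and length. In each of these fits 0 members were higher, beside 1.69% to 12% of tested genes. The members' median of -0.13 became -0.049 with library totals alone, -0.071 with the GC and length correction and -0.072 with the replicate block added to it, and lay between -0.16 and -0.10 with 1 library left out. With library totals alone the medians were -0.077 for complex I, -0.0401 for its assembly factors, -0.092 for complex II, -0.10 for complex III, -0.029 for complex IV and -0.00234 for complex V. With the GC and length correction, and with the block added, they were -0.0733 and -0.0738 for complex I, -0.093 and -0.092 for complex II, -0.0523 and -0.0524 for complex III, and -0.023 and -0.020 for complex IV. With 1 library left out they lay between -0.18 and -0.12 for complex I, -0.13 and -0.075 for its assembly factors, -0.18 and -0.15 for complex II, -0.21 and -0.13 for complex III, -0.15 and -0.081 for complex IV, and -0.10 and -0.056 for complex V. No median changed sign in these alternatives, and the cause of the changes was not tested.

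Of 49 named genes, none that was called changed sign, but some that were not called did. Among these, Cox6b2 was at 0.21, Cox6a1 at -0.17 and Cox8a at -0.16 in the main fit. With library totals alone the log2 fold change was positive for Atp5a1 (0.0070), Atp5b (0.0016), Atp5s (0.018), Cox5a (0.062), Cox5b (0.026), Cox7a2l (0.030), Ndufa4 (0.0096), Sdha (0.064), Uqcrb (0.076) and Uqcrh (0.013). With the GC and length correction, and with the block added, it was positive for Atp5a1 (0.0052 and 0.0063), Cox6a1 (0.101 and 0.104), Cox6b1 (0.0251 and 0.0247), Cox7a2 (0.0013 and 0.0011), Cox7a2l (0.015 and 0.022), Cox8a (0.0700 and 0.0692) and Uqcrb (0.016 and 0.017), and for Cox5b with both (0.0020). Uqcrb was also positive with median-of-ratios scaling (0.00535), DESeq2 (0.00535), limma-voom (0.0017), no filter (0.0046) and the block (0.0018). With 1 library left out the values ran from -0.104 to 0.0218 for Atp5s, -0.072 to 0.0443 for Cox5a, -0.155 to 0.00941 for Cox5b, -0.103 to 0.408 for Cox6b2, -0.135 to 0.0528 for Cox7a2l, -0.283 to 0.062 for Cox7c, -0.022 to 0.0115 for Sdha and -0.0562 to 0.0493 for Uqcrb.

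With the replicate number as a block 6 members were lower (7.34% of tested genes), 3 of them among the 5, and the median was -0.11. With the block and the GC and length correction 5 were lower (9.42%). Same-numbered libraries deviated together at r = -0.01, -0.09 and 0.18, so the numbers were not taken as pairs. Depth leaves genes such as Cox6b2, under 1 CPM, with wide errors.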
